A study of Mus musculus with 6 samples.

Results

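KEAP1, the small MAF proteins and the BACH proteins set how strongly the transcription factor NRF2 can act. The 10 genes described here encode NRF2 and its regulators (Nfe2l2, Nfe2l1, Keap1, Cul3, Maff, Mafg, Mafk, Bach1, Bach2 and Osgin1). They were taken by gene symbol from a table of 27179 mouse genes, in which all 10 were found, and all 10 had reads. The study compared B16F10 cells, an established line of mouse melanoma cells of WT genotype, after 6 h in medium with 0.01% ozonated olive oil (OZO, 3 libraries) or with 0.01% of the olive oil that was not ozonated (OLO, 3 libraries). Both groups therefore received oil, and a group without oil was not analysed here. For each gene the value used was the authors' mean log2 CPM over all 6 libraries of both groups (CPM, a gene's reads scaled to a common library size). This mean has no spread between libraries and does not separate OZO from OLO. The treatment was therefore not compared. The columns that hold the study's own comparison of OZO with OLO were not used here. What follows is how abundant each regulator's transcript was in these cells, how firm that level is, and what the gene and its promoter look like.

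Under resting conditions KEAP1 binds NRF2 and presents it to a ubiquitin ligase built on cullin 3, the product of Cul3, so that NRF2 is degraded soon after it is made. Electrophiles and oxidants modify cysteines of KEAP1, and NRF2 then accumulates in the nucleus. There it pairs with a small MAF protein (MAFF, MAFG or MAFK) and binds antioxidant response elements (AREs) near genes of glutathione synthesis, iron handling and NADPH supply. BACH1 and BACH2 pair with the same small MAF proteins and repress genes with such elements, and heme releases BACH1 from DNA. NRF1, encoded by Nfe2l1, is a relative of NRF2 that resides in the endoplasmic reticulum and is known for the induction of proteasome genes. Osgin1 encodes an oxidative stress induced growth inhibitor and is a known target of NRF2.

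The stretches of promoter that carry an ARE core are shown first, since this element is the one through which NRF2 and BACH proteins act, and the members are themselves regulators of it. Sequences are those of RefSeq on GRCm38.p6, and each window ran from 250 bases before an annotated start site to 50 bases after it. All 10 genes had at least 1 window, and there were 16 windows in all. The ARE core was searched as TGACNNNGC on both strands. Of the 10 genes, 4 held a match (Nfe2l2 and the 3 small Maf genes), in 4 of the 16 windows. Across the whole table of promoters, 14.0% of 27025 genes held the core in at least 1 window, as did 12.4% of the 32851 windows. The lines below are written 5′ to 3′ on the strand of the gene and end at or before the start site, with the match in capitals.
Nfe2l2: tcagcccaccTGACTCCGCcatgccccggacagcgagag
Maff: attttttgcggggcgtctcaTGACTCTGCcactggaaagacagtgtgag
Mafg: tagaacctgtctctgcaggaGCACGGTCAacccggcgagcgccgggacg
Mafk: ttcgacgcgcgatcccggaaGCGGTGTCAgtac

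The stretch of Nfe2l2 lies at chr2:75704875-75704913 on the minus strand, and its match begins 240 bases before the start site. In Maff the stretch lies at chr15:79346489-79346537 on the plus strand, and the match begins 112 bases before the first of 3 annotated starts. The Mafg stretch lies at chr11:120633741-120633789 on the minus strand, with the match 222 to 214 bases before the start. That of Mafk lies at chr5:139791503-139791535 on the plus strand, with the match 13 to 5 bases before the start. In Nfe2l2 and Maff the core reads along the gene's own strand, as TGACTCCGC and TGACTCTGC. In Mafg and Mafk it reads on the opposite strand, as TGACCGTGC and TGACACCGC. When the search was limited to bases before the start site, the same 4 genes held a match, beside 11.5% of all genes.

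None of the 10 genes held the CNC and small MAF element TGCTGAGTC, in which every letter is fixed and which 0.485% of all genes held. The AP-1 element TGANTCA, whose letters can overlap an ARE core, was found in 1 of the 10 genes, Osgin1, and in 8.97% of all genes. The cAMP response element TGACGTCA was found in 1 gene, Maff, at its second start, and in 2.03% of all genes. Both stretches are shown because these elements occur here in genes of the same circuit.
Osgin1: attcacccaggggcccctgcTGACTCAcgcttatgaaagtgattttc
Maff, second start: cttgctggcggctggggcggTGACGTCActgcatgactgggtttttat

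The Osgin1 stretch lies at chr8:119437030-119437076 and the Maff stretch at chr15:79347471-79347518, both on the plus strand. The Osgin1 element begins 97 bases before its start and the Maff element 29 bases before its second start. No match to any of the 4 motifs was found in the windows of Nfe2l1, Keap1, Cul3, Bach1 and Bach2, which says only that these letters are not in those windows. The window of Bach2 surrounds a RefSeq start 179 kb inside the span that GENCODE gives the gene, and that of Osgin1 a start 3.02 kb inside it. Of the 5 windows of Nfe2l1, the last 3 overlap one another. A match is a run of letters and was not tested as a binding site.

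**Figure D1:**
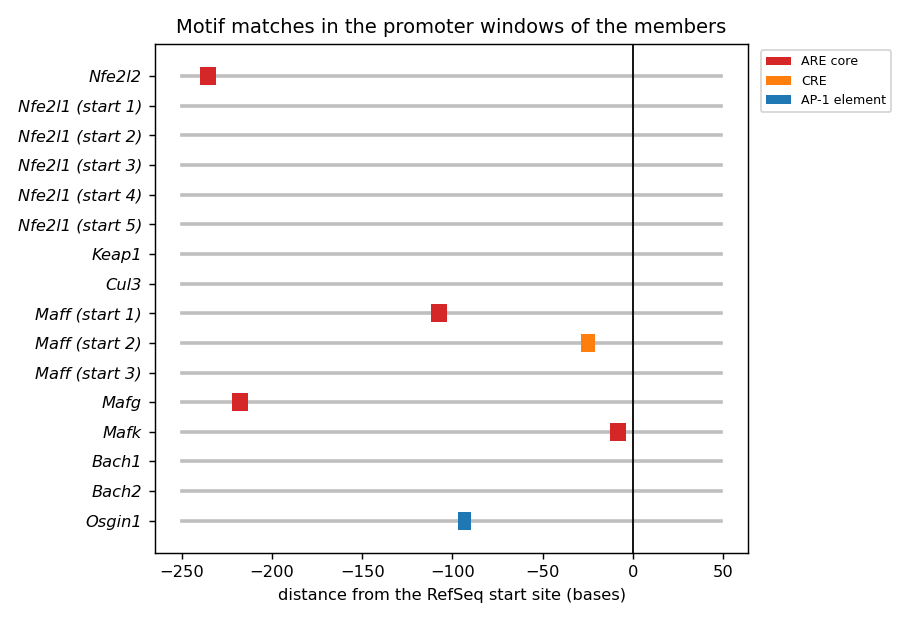
Each grey line is a promoter window of a member, plotted from 250 bases before the RefSeq start site (vertical line at 0) to the end of the 50 bases after it, and coloured bars are matches to the ARE core, the AP-1 element or the cAMP response element (CRE). The ARE core appears in 4 genes, Nfe2l2, Maff, Mafg and Mafk, at distances from 240 to 5 bases before the start.

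The promoters of the members differed in base composition. GC content was highest for Cul3 (72.3%), Mafg (69.7%), Bach1 (69.7%), Nfe2l2 (68.7%) and Mafk (68.3%), and lowest for Bach2 and the first start of Maff (50.3% each), whereas the median over all promoters was 52.7%. The Mafg window held 39 CpG pairs and that of Cul3 29, against a median of 7 over all promoters. The Osgin1 window held 6, the Bach2 window 7 and the first start of Maff 5. Nfe2l2, Mafg and Mafk thus carry their ARE core in a GC-rich window, and Maff in one that is not.

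The cells were checked against marker genes. All 7 melanocyte markers were present, and their levels as log2 of CPM per kilobase (kb) of the longest transcript ran from 5.29 for Sox10 to 11.07 for Tyrp1, an enzyme of melanin synthesis. The labels give skin as the tissue, but the highest of the 5 keratinocyte markers, Krt14, was at -5.80 on this scale, and Krt5 had no read in any library. The highest markers of other cell types were Adipoq at -3.68 (adipocytes, 3 genes), Pecam1 at -1.50 (endothelial cells, 3 genes), Pdgfra at -1.06 (fibroblasts, 5 genes) and Lyz2 at 0.44 (leukocytes, 5 genes). Summed over each list, markers came to 0.179 CPM for keratinocytes, 0.184 for adipocytes, 1.36 for endothelial cells, 2.21 for leukocytes and 6.50 for fibroblasts. Each sum contains the offset of 0.5 reads per gene and library that precedes the log. Library size, as a geometric mean recovered from genes without reads, was 19641946, and at this size 1 CPM equals 19.6 reads. Totals of single libraries were not analysed here.

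Levels of different members are compared only per length, on the same scale of log2 CPM per kb of the longest transcript that GENCODE M21 lists. On this scale the members spanned 5.94 log2 units, a 61.5-fold range. On this scale Cul3, Nfe2l2 and Nfe2l1 were the most abundant, each higher than at least 94.0% of the 19227 genes with reads and a length. Mafg, Bach1 and Mafk came next, followed by Osgin1, Keap1 and Maff, and Bach2 was the lowest. With coding length the order at the top differed, with Mafg first at 7.32 and then Cul3 (7.07), Nfe2l1 (6.80), Mafk (6.40), Nfe2l2 (6.38) and Bach1 (5.38), while Bach2 was again the lowest. The median of all genes with reads was 0.90 on this scale, and 9 of the 10 members lay above it, with Bach2 below. Among genes that averaged 1 CPM or more the median was 3.31, and 6 members lay above that. The intervals given below as counting error concern only the number of reads and leave out the spread between cultures. They treat the reads of the 6 libraries as independent and rest on the geometric mean count, which makes them too narrow where counts differ between libraries.

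**Figure D2:**
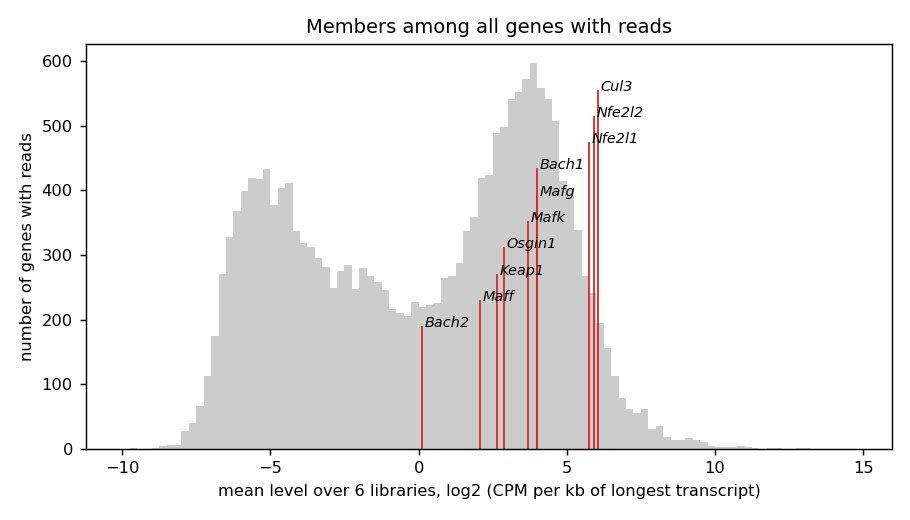
The histogram gives the number of genes with reads (vertical axis) by their mean level over 6 libraries, in log2 CPM per kb of the longest transcript (horizontal axis), and red lines mark the 10 members. Cul3, Nfe2l2 and Nfe2l1 lie in the upper tail and Bach2 is near the centre of all genes.

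The transcript of NRF2 was among the more abundant of the members. Nfe2l2 (ENSMUSG00000015839, chr2:75675513-75704641, minus strand) had a mean log2 CPM of 7.22, which is 150 CPM and about 2940 reads per library. Counting error alone for this value was ± 0.021 on the log2 scale. Per kb of its longest transcript of 2475 bases in 5 exons, its log2 level was 5.92, higher than 95.0% of genes with reads and 91.5% of genes at 1 CPM or more. GENCODE lists 2 transcripts for the gene, of which 1 codes for protein. No stretch of 100 bases in its longest transcript recurred in a transcript of another gene, and the only gene within its span, a small nuclear RNA gene, shares none of its exon bases.

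Nfe2l1 (ENSMUSG00000038615, chr11:96817414-96829968, minus strand), the gene of the proteasome regulator NRF1, had a mean log2 CPM of 7.96, or 249 CPM and about 4890 reads per library. Its log2 level per kb of the longest transcript was 5.74, and so 0.18 below that of Nfe2l2. This order depended on the length used. Per kb of coding sequence Nfe2l1 was higher than Nfe2l2 by 0.42, and per kb of merged exons by 0.22, so these 2 genes cannot be ordered. It has 12 annotated transcripts, of which 9 code for protein, the most of any member. The other CNC relatives were far lower. Nfe2l3 had 3.13 CPM and a log2 level per kb of 0.30, and Nfe2, the erythroid founder of the family, had 0.293 CPM and a log2 level per kb of -2.68.

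The KEAP1 and cullin 3 transcripts, which encode the substrate receptor and the scaffold of one ligase, differed widely. Keap1 (ENSMUSG00000003308, chr9:21229730-21239361, minus strand) had a mean log2 CPM of 4.49, or 22.5 CPM and about 441 reads per library, with a counting error of ± 0.055. Its log2 level per kb was 2.64, higher than 62.8% of genes with reads but only 37.8% of genes at 1 CPM or more. Cul3 (ENSMUSG00000004364, chr1:80264923-80340480, minus strand) had a mean log2 CPM of 8.27, or 309 CPM and about 6080 reads per library, and its log2 level per kb, 6.04, was the highest of the members with the longest transcript and with merged exons, and second to Mafg with coding length. The Cul3 transcript was thus 3.40 log2 units above that of Keap1 per kb (10.6-fold, counting error ± 0.06). Cullin 3 serves many other substrate receptors. Nfe2l2 was 3.28 log2 units above Keap1 per kb (9.71-fold, counting error ± 0.06), and both differences kept their direction with coding length (3.48 and 2.80) and with merged exons (3.73 and 3.04). Keap1 exons overlap those of the antisense gene Gm16754 over 510 bases, 10.87% of the merged exon length, and 6.26% of the 100-base stretches of its longest transcript recur there. Whether the authors counted by strand was not given in the sources used here, so reads of the pair over these bases cannot be told apart.

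Among the small Maf genes, whose products are the obligate partners of NRF2 on DNA, Mafg was the most abundant. Mafg (ENSMUSG00000051510, chr11:120625117-120633600, minus strand) had a mean log2 CPM of 6.28, or 77.7 CPM and about 1530 reads per library. Mafk (ENSMUSG00000018143, chr5:139791513-139802653, plus strand) had 5.31, or 39.6 CPM and about 778 reads per library. Maff (ENSMUSG00000042622, chr15:79346621-79359076, plus strand) had 3.03, or 8.15 CPM and about 160 reads per library, the fewest of any member. Per kb of the longest transcript the log2 levels were 3.98 for Mafg, 3.68 for Mafk and 2.06 for Maff.

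Mafg thus made up 48.2% of the summed small Maf level per kb, Mafk 39.1% and Maff 12.7%. This order was the same with coding length, where the shares were 61.0%, 32.3% and 6.65%, and with merged exons, where they were 51.0%, 37.4% and 11.6%. Counting error alone for Maff was ± 0.091 on the log2 scale. None of the 100-base stretches of the Maff and Mafk transcripts recurred in another gene, the other small Maf genes included. Of those of Mafg, 0.52% recurred in its neighbour Sirt7, with which it shares 124 exon bases on the same strand. Mafk shares 169 exon bases, 4.33% of its merged exons, with Tmem184a on the opposite strand.

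The small Maf genes have the smallest share of coding sequence in their longest transcripts among the members. The coding sequence is 468 bases in Maff and Mafk and 486 bases in Mafg, and makes up 9.87% of the longest transcript of Mafg, 15.1% of that of Mafk and 23.9% of that of Maff. The share is 28.3% in Bach2, 37.8% in Bach1 and 72.4%, the highest, in Nfe2l2. Coding length therefore moved the levels of the small Maf genes most, with Bach2 close behind Maff. On the log2 scale per kb, Maff went from 2.06 to 4.12 and Bach2 from 0.10 to 1.92. With merged exons Nfe2l2 moved most, from 5.92 to 5.30. Per kb of the longest transcript, the summed level of the 3 small Maf genes was 0.25 of the summed level of Nfe2l2, Nfe2l1, Bach1 and Bach2, which encode the factors that pair with them. With merged exons the ratio was 0.269, and with coding length it was 1.09. These ratios concern transcripts and say nothing of the amounts of protein.

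The large Maf genes, whose products have a transactivation domain that the small MAF proteins lack, were low. Of the 4 genes of this list, 1 exceeded 1 CPM (Maf, 7.68 CPM). Per kb, the log2 level ran from 0.27 for Maf down to -7.35 for Nrl, a regulator of rod photoreceptors, which had 0.60 reads per library with the offset of 0.5 included.

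The repressors were unequal as well. Bach1 (ENSMUSG00000025612, chr16:87698945-87733346, plus strand) had a mean log2 CPM of 6.53, or 92.5 CPM and about 1820 reads per library. Its log2 level per kb of the longest transcript was 3.98, the same as Mafg at this precision. With other lengths they differed, and Mafg minus Bach1 was 1.94 with coding length and -0.11 with merged exons. Bach2 (ENSMUSG00000040270, chr4:32238804-32586108, plus strand), best known from B lymphocytes, had 3.25, or 9.50 CPM and about 187 reads per library, and a log2 level per kb of 0.10, higher than 46.2% of genes with reads and 10.7% of genes at 1 CPM or more. Bach1 was thus 3.88 log2 units above Bach2 per kb (14.7-fold, counting error ± 0.09), and 3.47 and 3.97 with coding length and merged exons. Of the 5 leukocyte markers, 1 reached 1 CPM (Lyz2, 1.78 CPM).

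Bach2 shares 537 exon bases, 5.40% of its merged exons, with the antisense gene Bach2os, and its longest transcript of 8882 bases was the longest of the members. Nfe2l2 exceeded Bach1 by 1.94 log2 units per kb of the longest transcript (3.83-fold), by 1.40 with merged exons and by 1.0 with coding length, so the direction held while the size did not.

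Osgin1 (ENSMUSG00000074063, chr8:119434124-119446256, plus strand) had a mean log2 CPM of 4.08, or 16.9 CPM and about 332 reads per library, with a counting error of ± 0.063. Its log2 level per kb was 2.88, higher than 65.3% of genes with reads but only 42.0% of genes at 1 CPM or more, and 0.24 above Keap1. With coding length it was 0.02 below Keap1, so these neighbours cannot be ordered. The longest Osgin1 transcript, of 2302 bases, is annotated as a retained intron, one of 7 transcripts of which 4 code for protein.

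**Figure D3:**
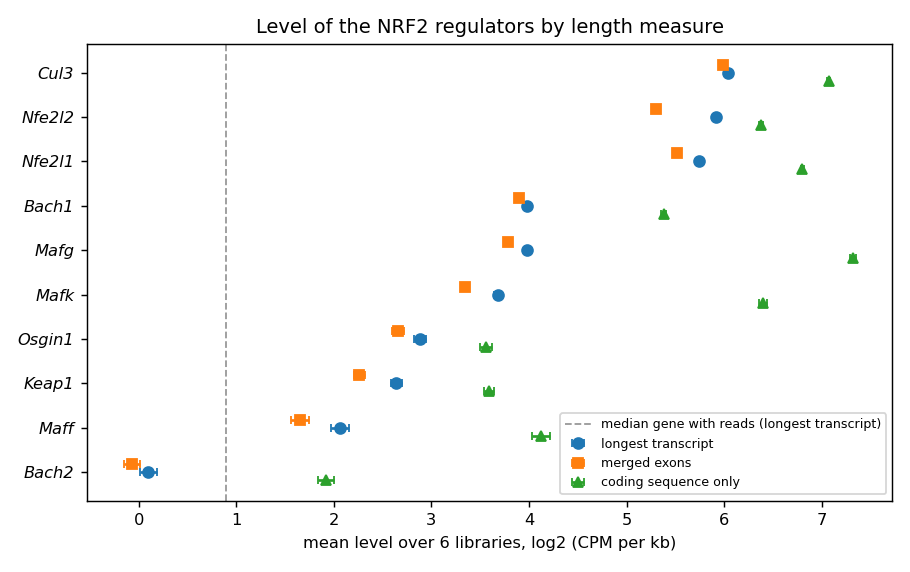
Mean level of each member over 6 libraries in log2 CPM per kb (horizontal axis), with circles for the longest transcript, squares for merged exons and triangles for coding sequence only. Bars are 95% counting intervals and do not hold the spread between libraries. Triangles of the small Maf genes sit far to the right of their circles, as at Mafg, which moves from 3.98 to 7.32.

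Of the 9 pairs of neighbours in the order by longest transcript, 3 kept their order under all 3 lengths. These were Cul3 above Nfe2l2, Mafk above Osgin1 and Maff above Bach2. Cul3 exceeded Nfe2l2 by 0.12 log2 units per kb of the longest transcript and by 0.69 with either other length. Mafk exceeded Osgin1 by 0.80, by 2.84 with coding length and by 0.68 with merged exons, and Maff exceeded Bach2 by 1.96, 2.21 and 1.72. For the other 6 pairs the direction changed with the length. Since the spread between libraries is not known, none of these differences was tested.

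The other genes of the circuit were summarised from lists. Of 11 genes for the cullin 3 ligase and for proteins that bind KEAP1, all 11 exceeded 1 CPM, with a median log2 level per kb of 4.66. The highest was Sqstm1, which encodes the autophagy receptor p62 that competes with NRF2 for KEAP1, at 1420 CPM and a log2 level per kb of 9.06. The lowest was Amer1, at 0.01 per kb. The Sqstm1 transcript was therefore far above that of Keap1 on the same scale (9.06 against 2.64).

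Of the genes for other routes of NRF2 turnover, 10 were found and all 10 exceeded 1 CPM, with a median log2 level per kb of 5.19, from Dcaf11 at 1.98 to Skp1, an adaptor of cullin 1 ligases, at 7.24. Genes for processing of NRF1 had a median of 3.69 over 7 genes. Among these Vcp, the segregase that pulls proteins from the endoplasmic reticulum, was highest at 7.47 and Ddi2, the protease that cleaves NRF1, was lowest at 0.96.

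Coactivators and rival bZIP factors had a median log2 level per kb of 4.36 over 12 genes. Atf4, a master regulator of the amino acid stress response that can also pair with NRF2, was highest at 7.48. Fosl1 was lowest, at 0.04 CPM, or 0.785 reads per library with the offset of 0.5 included. Of 24 genes listed as NRF2 targets, 23 exceeded 1 CPM, and the median log2 level per kb of the longest transcript was 5.90. The median of the 10 regulators on that length was 3.83, but their levels moved with the length used, and levels of the targets with other lengths were not computed, so the lists were not compared. Ftl1, the ferritin light chain, was highest at 11.26, although pseudogenes may share its reads, and Epha2 was lowest at -3.09. The ARE core was present in the promoter windows of 8 of the 19 targets that were found in the promoter table under the listed symbol, beside 14.0% of all genes. The list was written from known targets of NRF2, so that share is no independent finding.

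**Figure D4:**
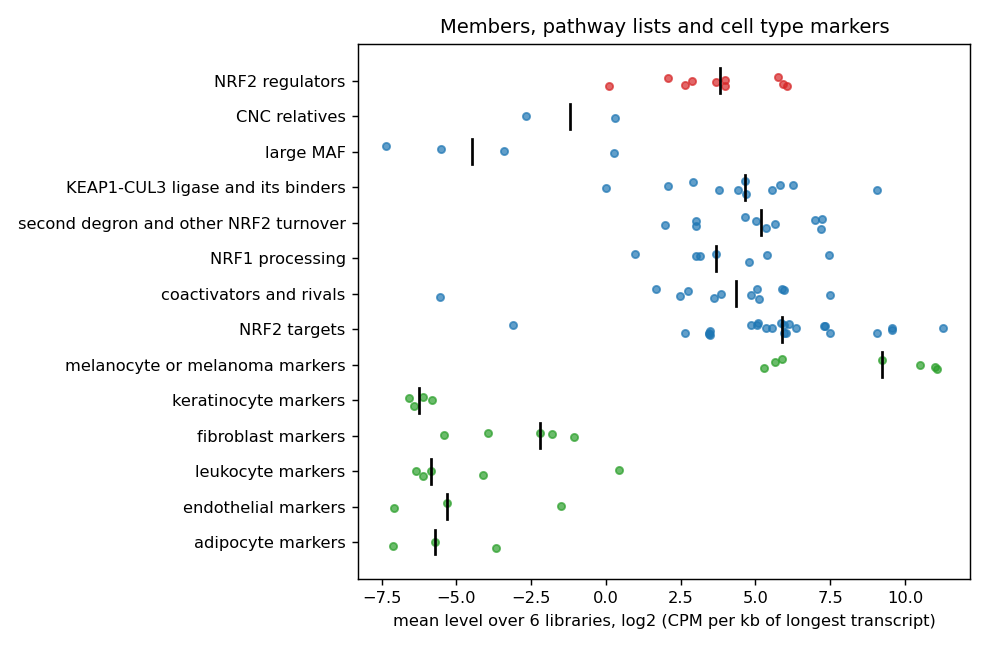
Each point is a gene with reads, placed by its mean level over 6 libraries in log2 CPM per kb of the longest transcript, in red for the 10 NRF2 regulators, blue for pathway lists and green for cell type markers. Black bars are medians, which with this length are 3.83 for the regulators and 5.90 for the NRF2 targets.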

How the data were processed

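According to the methods, RNA libraries (NEBNext Ultra II Directional) were sequenced as paired reads and aligned to mm10 with HISAT2 (version 2.1.0). Genes were counted with featureCounts (v2.1.1) and compared with limma-voom (v3.58.1). The values analysed are the mean log2 CPM that the authors deposited, in which voom adds 0.5 to each count. The deposited log2 fold changes, moderated statistics, log odds and p-values of the authors' own comparison of OZO with OLO were not used, and no fold change or test was computed. For transcript assembly with StringTie the methods name the UCSC mm10 annotation and TPM, values not used here. For the counting and voom steps, the annotation, strand use and library scaling are not given in the sources used here.

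Genes without reads share the lowest mean, which gives the geometric mean library size. As a check, 1212 genes lay at the value that 1 read in 1 library gives (tolerance 1e-06 on the log2 scale). The recovery was also tested on simulated data. Lengths and positions come from GENCODE M21 (GRCm38), in which 23906 of 24126 Ensembl identifiers of the table were found. The main length was that of the longest transcript. Coding length and merged exons were alternatives, the last chosen after seeing the data. The 10 members and all lists were chosen with earlier results of these data known. Named genes were all members and the highest and lowest gene of each list. Single cell type markers (Krt5 and the extremes of each list) were chosen after their values were seen. Protein identity between members was not analysed here. Python 3.11.15, numpy 2.4.6, pandas 2.3.3, scipy 1.17.1 and matplotlib 3.10.9 were used.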

Additional observations from a re-analysis of the deposited data

How the results depend on the processing

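No paired analysis was possible because the value of each gene is 1 mean over all libraries. For the same reason, the planned edgeR or limma fit was not run. Neither were a DESeq2 fit, another filter or pseudocount, the replicate block and leaving out each library. Length moved the comparisons between members. Nfe2l1 minus Nfe2l2 was -0.18 log2 units with the longest transcript but 0.42 with coding length and 0.22 with merged exons. Nfe2l2 minus Bach1 was 1.94 and became 1.0 with coding length, and the ratio of summed small Maf to summed partner levels went from 0.25 to 1.09. The share of Maff in the summed small Maf level went from 12.7% to 6.65%. The reads were the same in each case and only the length differed. Of the 10 members, 9 lay above the median gene with reads, 10 above that of all rows and 6 above that of genes at 1 CPM or more. Among the last, Keap1 stood above 37.8%, Osgin1 42.0%, Maff 29.1% and Bach2 10.7% of genes, from 62.8%, 65.3%, 57.6% and 46.2% of genes with reads. The ARE core matched in 4 members with either window, and the fully fixed element TGCTGAGTC in 0. The other differences between members in this comparison (Nfe2l2 and Cul3 against Keap1, Bach1 against Bach2) and the share of Mafg kept their direction and moved by less than 1.5-fold. Depth limits Maff (160 reads per library) and Bach2 (187) most.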
